A study of Mus musculus with 378 samples.

Results

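Islet preparations that carried much pancreatic acinar RNA were compared with preparations that carried little. The groups were chosen by measured RNA levels of 5 acinar enzyme genes, Cpb1, Pnlip, Cela2a, Ctrb1 and Cpa1. In the deposited variance-stabilised values each gene was standardised across libraries within the title letters F and M, and the score was the mean of the 5 standardised values. The 94 libraries with the highest scores formed the acinar-rich group and the 94 with the lowest the acinar-poor group. The other 190 libraries of the series lay between them and entered neither group.

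The series holds poly(A)-selected RNA sequencing of pancreatic islets from Diversity Outbred mice, animals that each carry a different mix of founder genomes, and its title names genetic drivers of islet function. Each library came from a different mouse. Both groups are of the same stock and had the same high-fat, high-sugar diet with 45% fat, and no allele, treatment or age separates them in the labels. The acinar-rich group held 46 libraries with title letter F and 48 with M, and the acinar-poor group 44 and 50. Acinar content was not assigned by the experimenters, so the groups differ in a measured property and nothing was randomised.

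Islets lie scattered in the exocrine pancreas and are freed from it by digestion, so an islet preparation keeps some acinar tissue. Acinar cells make digestive enzymes and their inactive precursors, the zymogens, store them in granules and release them into the duct system when cholecystokinin or acetylcholine stimulates them. The PTF1 complex, built from the basic helix-loop-helix protein PTF1A, a class A partner and RBPJL, keeps the enzyme genes active by binding an E-box and a neighbouring RBPJ-type site. In bulk RNA, a larger number of acinar cells and more RNA per acinar cell cannot be told apart.

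Promoters of genes that rose with the score are shown here because several carry the letters of both elements. Among 42 acinar genes that were at least 8-fold higher in acinar-rich libraries, 32 had a RefSeq promoter entry (GRCm38.p6), and the 250 bases before the start were searched on both strands. The E-box CACCTG was found in 18 of the 32 (56.2%) and in 19.4% of the promoters of 27025 genes. The RBPJ-type letters TTCCCA were found in 17 (53.1%) against 24.1%, and both together in 10 promoters (31.2%) against 4.54%. Any E-box, CANNTG, which includes CACCTG, was in 87.5% against 69.3%, and the nuclear receptor site CAAGGTCA in 6.25% against 1.51%. The 32 include the 5 score genes, and among the other 27 the E-box was in 16 (59.3%), TTCCCA in 13 (48.1%) and both in 9 (33.3%). The promoters include paralogs of shared ancestry, and these letters were chosen after others had been tried on the same promoters, so the shares are a description and no match is shown to be a bound site. The windows of Rbpjl, of the lipase gene Cel with 4 E-boxes and of the kallikrein gene Klk1 are printed 5′ to 3′ on the gene's strand, with the matches on either strand in capitals.
Rbpjl (chr2:164402944-164403193, plus strand): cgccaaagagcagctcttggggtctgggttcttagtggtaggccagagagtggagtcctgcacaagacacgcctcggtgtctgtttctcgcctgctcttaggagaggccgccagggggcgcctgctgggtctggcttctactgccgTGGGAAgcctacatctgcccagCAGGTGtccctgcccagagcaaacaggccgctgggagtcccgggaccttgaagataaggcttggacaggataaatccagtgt
Cel (chr2:28563404-28563653, minus strand): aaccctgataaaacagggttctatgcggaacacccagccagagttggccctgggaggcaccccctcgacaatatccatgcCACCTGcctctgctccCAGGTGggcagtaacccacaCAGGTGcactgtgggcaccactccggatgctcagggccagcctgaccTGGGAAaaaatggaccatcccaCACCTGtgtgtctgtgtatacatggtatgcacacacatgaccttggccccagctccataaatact
Klk1 (chr7:44225110-44225359, plus strand): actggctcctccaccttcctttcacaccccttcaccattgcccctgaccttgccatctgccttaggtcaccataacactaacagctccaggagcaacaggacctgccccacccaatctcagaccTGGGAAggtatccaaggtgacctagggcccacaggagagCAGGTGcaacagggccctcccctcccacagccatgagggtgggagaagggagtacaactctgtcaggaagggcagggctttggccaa
The E-box began 82 bases before the start in Rbpjl and 87 bases before it in Klk1.

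Sequencing depth was alike in both groups, with a median total of 34752712 counts (17154872 to 48273202) in acinar-rich and 33485565 (18360098 to 68757039) in acinar-poor libraries. As a check of the title letters, 4 genes of the Y chromosome were at 0 CPM in every F library, and 1 of them, Ddx3y, was at 40.87 CPM or more in every M library. Xist, which silences an X chromosome in females, reached at most 17.85 CPM in M libraries against an F median of 1359 CPM, but 2 F libraries, 1 of them acinar-rich and 1 between the groups, were at 0.468 and 0.878 CPM. The labels name no batch. Mouse numbers were divided into 4 bands of 100 from number 21, and both groups were drawn from each band (30, 20, 22 and 22 acinar-rich and 24, 19, 23 and 28 acinar-poor libraries). The labels give no meaning to these bands.

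The score set the groups, so its own values are given only as a description. The score ran from -4.370 to 2.378 over all libraries. The last library inside the acinar-poor group scored -0.598 and the first outside -0.596, while the last inside the acinar-rich group scored 0.702 and the first outside 0.697, so both boundaries pass through a continuous range. Cpb1, the carboxypeptidase B zymogen gene, had a lowest, median and highest level of 0.22, 46.1 and 167.8 CPM (counts scaled to a common library size by TMM) in acinar-poor and of 275.8, 842 and 7009 CPM in acinar-rich libraries. The medians of the other score genes were 89.5 and 1625 CPM for Pnlip (pancreatic lipase), 60.9 and 907 CPM for Cela2a (an elastase), 125.3 and 1905 CPM for Ctrb1 (chymotrypsinogen) and 52.2 and 766 CPM for Cpa1 (carboxypeptidase A1). The 60 genes of the score and the acinar lists found in the table, Bhlha15 and Rab3d included, took a median of 0.207% of all counts in acinar-poor libraries (0.0575 to 0.57%), 0.723% in those between (0.268 to 2.33%) and 2.58% in acinar-rich libraries (0.906 to 16.3%). The share in acinar-rich libraries had medians of 4.1, 2.44, 2.33 and 1.31% in bands 1 to 4. An acinar-rich library of band 4 could therefore hold a smaller share than a library of band 1 that lay between the groups. The 3 largest shares were 16.3 and 9.92% in M mice DO-073 and DO-111 of band 1 and 9.84% in F mouse DO-228 of band 3.

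**Figure D1:**
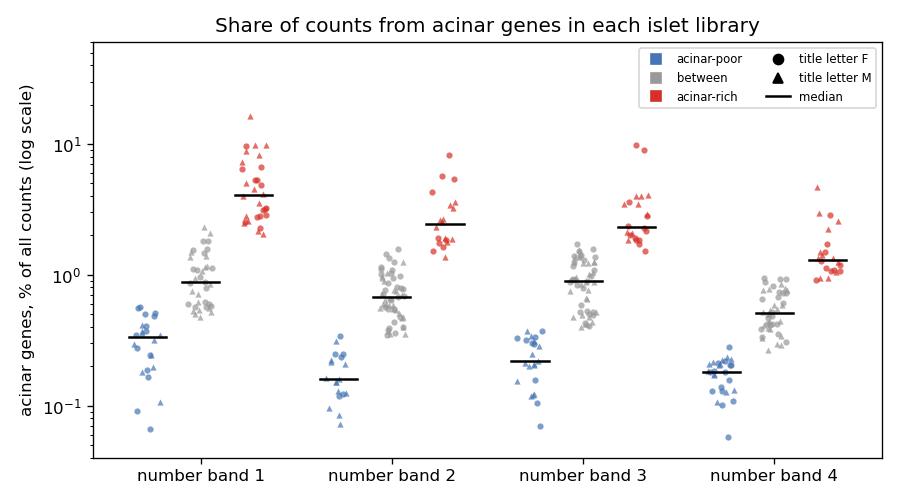
Share of all counts (%, log scale) taken by the acinar genes in each library of the series, by number band and group; circles are title letter F, triangles M, and bars are medians. Acinar-rich libraries (red) had band medians from 1.31 to 4.1% and acinar-poor libraries (blue) from 0.158 to 0.332%.

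The comparison across all genes asked which other RNA went along with acinar content. Of 17857 genes tested with edgeR's quasi-likelihood test and title letter as covariate, 740 were higher in acinar-rich libraries (4.14%) and 1.64% were lower at an adjusted p under 0.05. Without the score genes 735 were higher. The large differences were nearly all increases: 0.633% of genes were at least 2-fold higher, 53 outside the score at least 8-fold, and 8 genes (0.0448%) at least 2-fold lower. With the band as covariate 5.78% were higher and 3.61% lower, so 61.6% of calls were higher ones, and with limma on the deposited values 4.26 and 3.6%, or 54.2% higher ones. Total-count scaling gave 496 higher and 1540 lower genes and cut the share of higher calls from 71.7 to 24.4%, with a shift of the median gene from -0.004 to -0.05 on the log2 scale, so the direction of small differences depends on the scaling. Fewer genes were called without number band 1 (1.09% higher and 0.101% lower) or without band 2 (1.95 and 0.479%). More were called without band 3 (4.74 and 2.51%) or band 4 (6.36 and 3.76%). Every called gene that could be tested without band 1 kept its sign there, in libraries shared with the full comparison. A call lost without band 1 therefore does not show a difference between bands. Tested directly, the group difference depended on the band in 0.437% of genes.

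Digestive enzyme genes were higher in acinar-rich libraries. All 22 tested members of the enzyme list outside the score rose, with a median log2 difference of 4.27 (19.3-fold) against -0.004 for all genes tested, and 4.14% of all genes were called higher. The list's 23rd member, Cela3a, failed the filter on low counts, with a median of 0 CPM in acinar-poor and 0.102 CPM in acinar-rich libraries. Within the 4 bands alone the median of the list was 4.23, 4.55, 4.14 and 3.82, and in the 190 libraries that entered neither group all 22 had a positive slope on the score and 19 passed the test. Of 16963 genes tested in those libraries 8340 had a positive slope, and 0.401% had one that passed. The listed enzyme genes are expressed in the same cells as the score genes, so their rise is not independent of how the groups were chosen.

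Cela1, the elastase 1 gene (ENSMUSG00000023031, chromosome 15, 100674425 to 100687920, GRCm38), had 7.32, 65.6 and 174.4 CPM as lowest, median and highest level in acinar-poor and 86.2, 998.5 and 6479 CPM in acinar-rich libraries. The groups overlapped through 1 library: 93 of 94 acinar-rich libraries lay above every acinar-poor one, and the log2 difference was 4.24 ± 0.156 (SE, adjusted p = 1.11e-62). Clps, which encodes the lipase cofactor colipase, had 0.33, 19.5 and 67.2 CPM against 95.75, 297.8 and 1651 CPM. Its groups did not overlap, and the difference was 4.17 ± 0.157 (adjusted p = 8.76e-62). Of all genes tested, 0.106% (19 genes, 4 of them score genes) separated the groups completely, and all 19 were acinar list members. They included the trypsinogen gene Try4 (4.40), the bile salt-activated lipase gene Cel (4.22), the lipase-related Pnliprp1 (4.40), the ribonuclease gene Rnase1 (4.18) and Klk1 (4.47).

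Amy1, the salivary-type amylase gene, rose by 2.83 ± 0.207 on the log2 scale, from a median of 1.93 to 5.80 CPM, and its groups overlapped. The pancreatic amylase genes rose more, such as Amy2a5 by 4.59 ± 0.233, from 0.22, 101.7 and 509 CPM to 9.62, 2369 and 13920 CPM. Amylase and trypsinogen genes lie in arrays of near-identical copies, and fractional counts in 100% of libraries for Amy2a5 and 99.7% for Try5 show reads shared among loci, so the split within each family is uncertain. Ctrc (chymotrypsin C) and Cela2a start at the same listed position, and their reads may also be mixed.

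**Figure D2:**
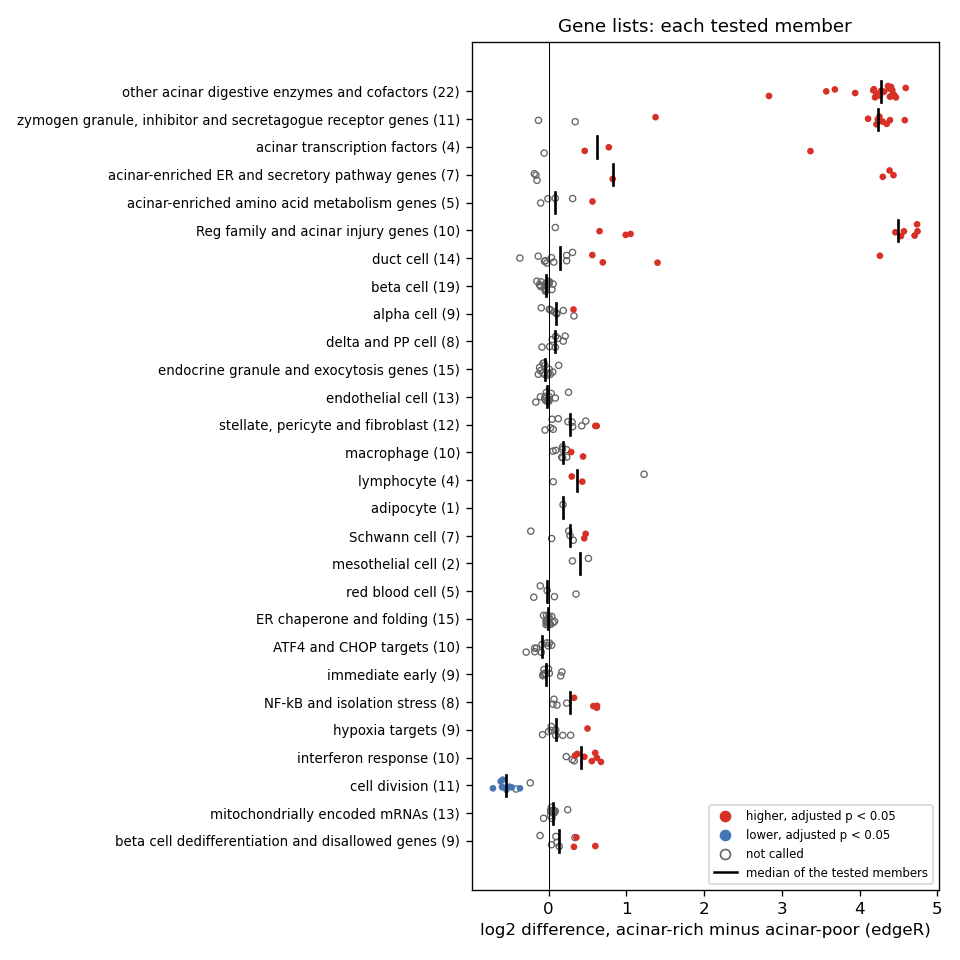
Log2 difference, acinar-rich minus acinar-poor, of each tested member of 28 gene lists (tested members in parentheses); filled points passed the edgeR test at an adjusted p under 0.05, open points did not, and bars are list medians. The medians of the enzyme, granule and Reg lists lie from 4.23 to 4.49, with single granule and Reg list members near 0, while the beta cell median is at -0.04 and the cell division median at -0.54.

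Genes of the zymogen granule and of secretion control rose too. In this list 9 of 11 tested members rose and none fell (0), with a median of 4.23. Of all genes tested 4.14% were called higher. Gp2, the major glycoprotein of the granule membrane, had 0.146, 6.64 and 33.5 CPM in acinar-poor and 10.7, 135 and 944 CPM in acinar-rich libraries, a difference of 4.58 ± 0.195 (adjusted p = 4.18e-55) with overlap through 1 acinar-rich library. The lectin gene Zg16 (4.39), the granule protein gene Sycn (4.22), Cuzd1 (4.35) and the trypsin inhibitor gene Spink1 (4.23) rose by similar amounts. Aqp12, an acinar aquaporin gene, rose by 4.11 at low levels, from a median of 0.112 to 1.63 CPM, and Aqp8 by 1.38.

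Members that did not pass were of another kind. Rab3d, a GTPase gene of secretory granules, had medians of 206.6 and 187.7 CPM (-0.13, adjusted p = 0.109). Cckar, the cholecystokinin receptor gene, had a median of 0.126 CPM in acinar-poor and 1.02 CPM in acinar-rich libraries, and all 94 acinar-rich libraries lay above the acinar-poor median. Its highest level was, however, in an acinar-poor library (25.96 CPM, against 18.1 CPM in the highest acinar-rich one), and the difference was 0.34 ± 0.327 (adjusted p = 0.615). It was 1.51, -1.05, 2.02 and -1.03 in bands 1 to 4, and on the deposited log2 values it passed (adjusted p = 0.00808).

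Transcription factors of acinar cells went apart. Rbpjl (ENSMUSG00000017007) had 0, 0.098 and 0.289 CPM in acinar-poor and 0.204, 0.903 and 3.96 CPM in acinar-rich libraries, a difference of 3.37 ± 0.15 (adjusted p = 2.96e-52), with 90 acinar-rich libraries above every acinar-poor one. Ptf1a was too low to be tested, with 0 CPM in 71 acinar-poor and 6 acinar-rich libraries and a highest level of 1.33 CPM. Gata4 rose by 0.77 ± 0.133 and Nr5a2, the nuclear receptor LRH-1 gene, by 0.46 ± 0.0851, both with wide overlap, and Nr5a2 was no longer called without band 1 (adjusted p = 0.141). Bhlha15, which encodes the acinar secretory factor MIST1, had nearly the same level in both groups: 41.1, 74.7 and 120 CPM in acinar-poor and 32.1, 69.9 and 117.5 CPM in acinar-rich libraries (-0.06 ± 0.0482, adjusted p = 0.558).

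The acinar-enriched secretory pathway list split in the same way. The disulfide isomerase gene Pdia2 (4.38), its relative Erp27 (4.30) and the cargo receptor genes Tmed11 (4.44) and Tmed6 (0.82) rose, 4 of 7 tested. Of all genes tested 4.14% were called higher. Derl3, Fkbp11 and Sdf2l1, folding and degradation genes of the endoplasmic reticulum, were at -0.15, -0.18 and -0.16 and did not pass. No gene of the general list of 15 endoplasmic reticulum chaperones was called (0), and 1 of 5 amino acid metabolism genes was, the glycine methyltransferase gene Gnmt (0.55 ± 0.0857).

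The library with the lowest score, F mouse DO-070 of band 1 (score -4.37, next lowest -2.96), shows which listed genes persist when acinar RNA is nearly missing. Its counts included 6 of Cpb1, 8 of Cpa1, 7 of Cela2a and 0 of Rbpjl, Ptf1a, Sycn, Spink1 and Pnliprp2. In the same library Cela1 was still at 14.7 CPM, Bhlha15 at 80.8 CPM and Rab3d at 198 CPM. Bhlha15 and Rab3d thus lay near their group medians, whereas Cela1 lay below its acinar-poor median of 65.6 CPM.

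**Figure D3:**
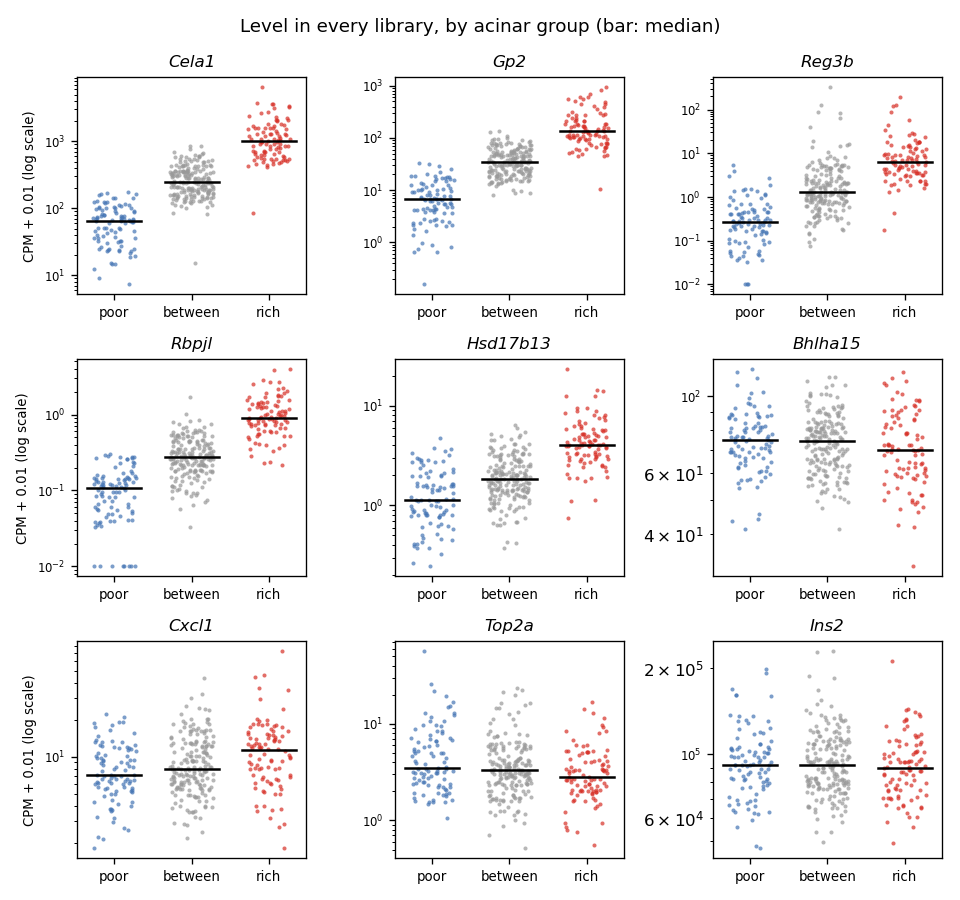
Level in CPM plus 0.01 (log scale) of 9 genes in every library of the acinar-poor, between and acinar-rich groups, with medians as bars. Cela1, Gp2, Reg3b, Rbpjl and Hsd17b13 step up from group to group, whereas the groups of Bhlha15, Cxcl1, Top2a and Ins2 overlap widely.

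Reg family genes, which encode secreted lectin-like proteins of acinar cells that are known to be induced in pancreatitis, rose as strongly as the enzymes. Of 10 tested members of the Reg and injury list 9 rose and none fell (0), with a median of 4.49, where 4.14% of all genes were called higher. Reg1 had 0.0732, 12.02 and 69 CPM in acinar-poor and 48.04, 191.4 and 1714 CPM in acinar-rich libraries (4.53 ± 0.211, adjusted p = 1.12e-49), with 90 acinar-rich libraries above every acinar-poor one. Reg3b had 0, 0.261 and 5.36 CPM against 0.169, 6.46 and 190.8 CPM (4.74 ± 0.278, adjusted p = 1.88e-37), and only 54 acinar-rich libraries lay above every acinar-poor one. The differences of Reg3d, Reg3g and Reg2 were 4.71, 4.74 and 4.46. The injury genes Lcn2 (lipocalin 2, 1.05), Nupr1 (0.99) and Clu (clusterin, 0.66) rose by less, and Cd44 did not pass (0.09, adjusted p = 0.736).

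Acinar genes differed in how tightly they followed one another among the 94 acinar-rich libraries. Measured as the SD of the log2 ratio to the summed enzymes, the spread was 0.201 for Prss2, 0.246 for Pnliprp1 and 0.357 for Gp2. It was 0.707 for Reg1, 1.2 for Reg3b and 1.56 for Reg2, and among enzymes 1.28 for Ctrc, 1.91 for Prss3 and 2.5 for Amy2b. Amy2b ran from 2.29 to 27900 CPM within the acinar-rich group, with a median of 108.6 CPM. A ratio within a library shows unequal change between genes and does not say which of them varied.

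By class, amylases took a median of 39.8% of enzyme CPM in acinar-poor and 44.05% in acinar-rich libraries, trypsinogens 12.6 and 12.75%, chymotrypsins and elastases 20.9 and 19.3%, carboxypeptidases 9.07 and 7.95%, and lipases with colipase 14.8 and 14.1%. The interquartile ranges of the groups overlapped for trypsinogens, at 11.4 to 14.2% and 11.5 to 14.35%, and for amylases, at 34.8 to 43.75% and 39.2 to 47.4%. The amylase share was lower in band 4 as a whole. Its medians in bands 1 to 4 were 41.9, 39.98, 43.35 and 34.4% in acinar-poor and 46.7, 45.07, 44.75 and 33.6% in acinar-rich libraries, so the acinar-rich median was the higher one in bands 1 to 3 and the lower one in band 4. These shares were not tested.

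**Figure D4:**
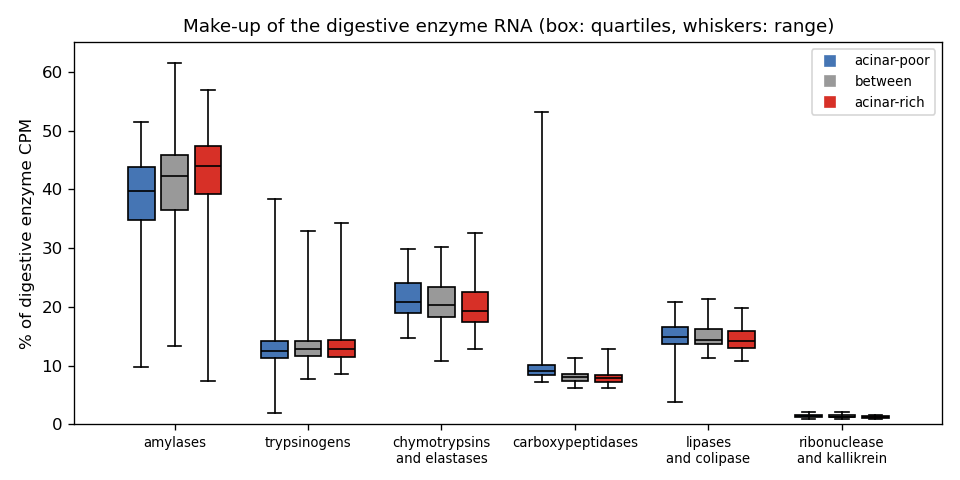
Percent of the summed digestive enzyme CPM taken by each enzyme class in acinar-poor (94), between (190) and acinar-rich (94) libraries; boxes are quartiles with the median, whiskers the full range. Amylases are the largest class in each group, with medians from 39.8 to 44.05%, and single libraries reach from 7.46 to 61.5%.

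Duct genes were tested because digestion can leave duct fragments beside acinar tissue. Of 14 tested members 4 rose and none fell (0), with a median of 0.15, where 4.14% of all genes were called higher. Tff2, a secreted trefoil peptide gene, had 0, 0.904 and 4.02 CPM in acinar-poor and at least 0.774 and a median of 15.5 CPM in acinar-rich libraries (4.26 ± 0.175, adjusted p = 3.92e-57). Its ratio to the enzymes had an SD of 0.55 among acinar-rich libraries, nearer to that of the granule genes than to the 1.15 of Cftr, the chloride channel gene of duct cells. Cftr rose by 1.401 ± 0.197, from a median of 0.37 to 1.34 CPM, the progenitor factor gene Sox9 by 0.70 ± 0.117 and the mucin gene Muc1 by 0.56 ± 0.093, with overlapping groups. The keratin genes Krt19 (0.31, adjusted p = 0.5) and Krt7 (-0.05, adjusted p = 0.63) did not pass. Summed over 15 duct genes the level was 643 CPM (435 to 5147) in acinar-poor and 683 CPM (424.5 to 1718) in acinar-rich libraries.

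Endocrine genes differed little. None of 19 beta cell genes (0), 8 delta and PP cell genes (0) or 15 endocrine granule genes (0) was called, with medians of -0.04, 0.09 and -0.05. The shares over all genes tested were 4.14% higher and 1.64% lower, so lists of this size would hold few calls in any case. Ins2 had medians of 92050 and 89860 CPM (-0.04 ± 0.053, adjusted p = 0.73), and Ins1 was at -0.12 ± 0.0736 (adjusted p = 0.394), with fractional counts in every library for both. Together the insulin genes took a median of 13.05% of counts in acinar-poor and 11.9% in acinar-rich libraries. Iapp (0.04), Sst (-0.09) and Ppy (0.21) did not pass either. In simulated counts for these libraries 22% of 50 genes changed 1.1-fold were recovered, so differences of the size of those of Ins1 and Ins2 would often be missed.

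Gcg, the glucagon gene, was the alpha cell gene called of 9 tested, where 4.14% of all genes were called higher. It had 2212, 13250 and 51440 CPM in acinar-poor and 1723, 18300 and 57450 CPM in acinar-rich libraries (0.31 ± 0.0957, adjusted p = 0.0334). The difference was 0.69 in band 1 and 0.01, 0.07 and 0.14 in bands 2 to 4, it did not pass with the band as covariate (adjusted p = 0.0588), and without band 1 its adjusted p was 0.895. Of 7 hormone ratios tested by permutation within title letter, the log2 ratios of Gcg to Ins2 (0.307 higher, p = 0.0225) and of Gcg to Sst (0.395 higher, p = 0.0134) had the smallest p, and both missed the threshold after adjustment (adjusted p = 0.0786 each). The Gcg to Ins2 difference was 0.901 in band 1 and -0.0575, -0.144 and 0.169 in bands 2 to 4.

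Few markers of the other cells of the pancreas were called, and by small amounts. Of all genes tested 4.14% were called higher, and 1.09% without band 1. None of 13 endothelial (0), 5 red blood cell (0) or 2 mesothelial genes (0) was called, nor the 1 adipocyte gene tested (0). Of 7 Schwann cell genes S100b (0.48, adjusted p = 0.0351) and the cadherin gene Cdh19 (0.46, adjusted p = 0.0261) rose at medians under 1 CPM, and neither passed without band 1 (adjusted p = 0.328 and 0.626). The Schwann cell list summed to 11.9 CPM (7.07 to 23.8) in acinar-poor and 12.02 CPM (8.18 to 26.3) in acinar-rich libraries. In the list of stellate, pericyte and fibroblast genes 2 of 12 were, the matrix gene Dcn (0.62 ± 0.148, adjusted p = 0.00301) and the receptor gene Pdgfra (0.60 ± 0.171, adjusted p = 0.0174), and neither passed without band 1 (adjusted p = 0.0737 and 0.193). Summed levels overlapped fully, with 158.2 CPM (73.02 to 654) for these 12 genes in acinar-poor and 154.1 CPM (74.3 to 1577) in acinar-rich libraries. Of 10 macrophage genes Cd14 (0.29) and Lyz2 (0.44) were called, and of 4 lymphocyte genes Ptprc (0.43) and Lck (0.30), and none of these passed without band 1 (adjusted p = 0.478, 0.345, 0.488 and 0.489). With total-count scaling Cd14 and Lyz2 did not pass either (adjusted p = 0.0536 and 0.0628). The macrophage list summed to 80.9 CPM (45.2 to 156.5) and 90.9 CPM (54.4 to 260.6), and the lymphocyte list to 11.8 CPM (5.54 to 57.9) and 13.5 CPM (6.74 to 414.9). No defining marker of these lists was at 0 in all libraries of a group, and the part of these cells in the other results was not tested.

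Chemokine genes rose slightly. Of 8 tested members of the NF-kB and isolation stress list 4 rose and none fell (0), with a median of 0.28, where 4.14% of all genes were called higher (1.09% without band 1). Ccl2, the monocyte chemoattractant gene, had 3.87, 11.1 and 45.4 CPM in acinar-poor and 2.70, 15.2 and 68.5 CPM in acinar-rich libraries (0.62 ± 0.117, adjusted p = 3.43e-05), and 70 of 94 acinar-rich libraries lay above the acinar-poor median. The neutrophil chemokine gene Cxcl1 rose by 0.62 ± 0.125 (adjusted p = 0.000168), Il6 by 0.58 ± 0.15 and Cxcl2 by 0.33 ± 0.1. Without band 1, Ccl2 (adjusted p = 0.0136), Cxcl1 (0.00503) and Il6 (0.0412) still passed and Cxcl2 did not (0.607). The groups of each of these genes overlapped widely.

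Interferon-induced genes were higher as a list in band 1. Of 10 tested members 7 rose and none fell (0), with a median of 0.41, where 4.14% of all genes were called higher. The antiviral gene Mx1 had medians of 30.3 and 45.0 CPM (0.67 ± 0.172, adjusted p = 0.00662), Ifit1 medians of 246.3 and 323.6 CPM (0.60) and the ubiquitin-like modifier gene Isg15 medians of 21.9 and 28 CPM (0.56). List medians were 0.76, 0.49, 0.16 and 0.11 in bands 1 to 4, where 7, 0, 0 and 0 members were called (3.95, 0.789, 0.914 and 0.448% of all genes were called higher). Without band 1 no member passed (0), and on the deposited log2 values 1 did.

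Other stress lists showed few calls. None of 10 ATF4 and CHOP targets (0), 9 immediate early genes (0) or 13 mitochondrially encoded mRNAs (0) was called, with medians of -0.09, -0.04 and 0.06. Of 9 hypoxia targets the vasodilator peptide gene Adm rose (0.50, adjusted p = 0.00665), and it passed without band 1 (adjusted p = 0.0115). Of 9 genes linked to beta cell dedifferentiation or normally kept low in beta cells 3 rose: Pdgfra, the lactate dehydrogenase gene Ldha (0.36, adjusted p = 0.000611) and the monocarboxylate transporter gene Slc16a1 (0.33, adjusted p = 0.00124). Pdgfra is also the fibroblast list member named above. Without band 1 Ldha passed (adjusted p = 0.0144), and Slc16a1 (0.15) and Pdgfra did not. Of all genes tested 4.14% were called higher, and 1.09% without band 1.

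Cell division genes were lower, the one list in which genes fell. Of 11 tested members 9 fell and none rose (0), with a median of -0.54, and 1.64% of all genes were called lower. Top2a, the DNA topoisomerase gene of dividing cells, had 1.05, 3.44 and 56.4 CPM in acinar-poor and 0.552, 2.79 and 16.6 CPM in acinar-rich libraries (-0.60 ± 0.144, adjusted p = 0.0032), with 33 of 94 acinar-rich libraries above the acinar-poor median. The mitotic genes Cenpf (-0.72), Aurkb (-0.62) and Birc5 (-0.60) and the cyclin gene Ccna2 (-0.37) fell too, at medians under 4 CPM. List medians were -0.93, -0.67, 0.06 and -0.38 in bands 1 to 4. In band 1 all 11 were called and in bands 2 to 4 none (0), where 3.7, 0.0778, 0.288 and 0.0118% of all genes were called lower, and without band 1 none was (0), although all 11 remained below 0.

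**Figure D5:**
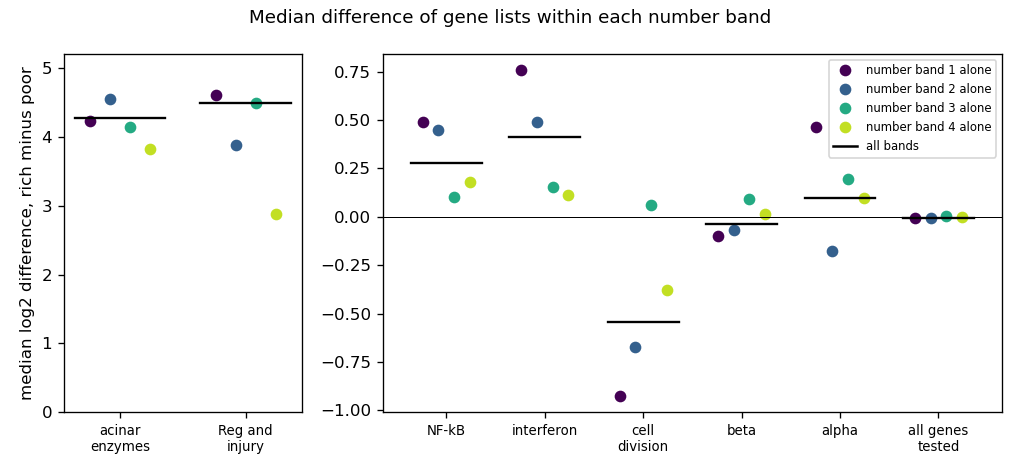
Median log2 difference (acinar-rich minus acinar-poor) of 7 gene lists and of all genes tested in each number band fitted alone (points) and in all bands together (bars); the 2 panels have different scales. Enzyme and Reg medians lie between 2.88 and 4.61 in each band, whereas interferon and cell division medians are farthest from 0 in band 1.

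Outside the lists, genes with a mean of at least 2 CPM, the same sign in each band and no placeholder symbol were ranked. Apart from amylase copies, the largest increases among them were lower than those of the enzymes. Genes with Gm symbols, left out of this ranking, included Gm5409 (4.8) and Gm10334 (3.45), each called higher in every band. Hsd17b13, a lipid droplet dehydrogenase gene, had 0.234, 1.13 and 4.78 CPM in acinar-poor and 0.741, 4.05 and 23.4 CPM in acinar-rich libraries (1.81 ± 0.13, adjusted p = 3.07e-28), and 91 acinar-rich libraries lay above the acinar-poor median. Ankrd1, a YAP target gene (1.57 ± 0.182), Ceacam2 (1.20), the neuropeptide gene Vip (1.11), the anchoring collagen gene Col7a1 (1.04), the keratin gene Krt17 (1.03), vitronectin (Vtn, 0.93) and the chemokine gene Cxcl5 (0.92) followed, all with overlapping groups. Each of these passed without band 1 as well. The 5 genes that fell at least 2-fold at this level carry provisional Gm or pseudogene symbols. Among genes with other symbols and the same sign in each band, list members included, the largest decreases were smaller than these increases, led after Top2a by Cmtm8 (-0.51), the transcription factor gene Dach2 (-0.40), Ccna2 (-0.37), the peroxisomal transporter gene Abcd2 (-0.36) and Lpin1 (-0.35), a phosphatidate phosphatase gene that fell from a median of 50.9 to 39.15 CPM. None of these passed without band 1 (adjusted p from 0.229 for Cmtm8 to 0.778 for Lpin1).

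The genes called in every band were mostly acinar. The same score set the groups in each band, so the return of acinar genes there is not independent of how the groups were chosen. Fitted alone, bands 1 to 4 gave 3.95, 0.789, 0.914 and 0.448% of all genes higher. Called higher in each of the 4 bands were 67 of the 17857 genes tested. These were the 5 score genes, 36 other members of the acinar lists or amylase copies, 8 members of other lists and 18 genes in no list. No gene was called lower in each band (0). The genes below were chosen from the 67 after their values were seen. Slc39a5, a zinc transporter gene, rose by 4 ± 0.16, from a median of 0.143 to 1.78 CPM. The gamma-glutamyltransferase gene Ggt1 rose by 3.50, the glutamine transporter gene Slc38a3 by 2.11, the sarcosine dehydrogenase gene Sardh by 1.74 and the creatine synthesis gene Gamt by 1.16. The gap junction genes Gjb1 (connexin 32, 3.22) and Gjb2 (connexin 26, 2.26), the keratin gene Krt23 (2.74) and the Hippo pathway factor gene Tead2 (2.12) rose as well. In the 190 libraries of neither group, where 68 genes in all (0.401%) had a slope above 0 that passed the test, Slc39a5, Ggt1, Gjb2, Krt23, Slc38a3, Gamt and Tead2 were among them, and Sardh was not (adjusted p = 0.461).

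Smaller differences mostly did not pass the test in libraries outside the groups. Of 664 genes outside the score called higher by under 4-fold, 615 could be tested in the 190 libraries of neither group, where 64.9% had the same sign and 6 passed. Of the genes called lower by under 4-fold that could be tested there, 72.7% had the same sign and 1 passed, and 0.0295% of all genes had a slope below 0 that passed. The same sign was seen in 47.1% of all genes. The range of the score is narrower there, and fewer calls do not show that these genes did not differ.

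The difference between groups was compared between title letters by an interaction term. Of 17857 genes 1 passed (0.0056%), Gm12504, and 1085 had an unadjusted p under 0.05. Fitted alone, F libraries gave 0.773% of genes higher and 0.0649% lower, and M libraries 2.09 and 0.788%.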

How the data were processed

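Poly(A) RNA of islets was sequenced by the authors, 1 library per mouse. The authors deposited estimated counts (expected counts per gene, not normalized) for 22180 genes, and 67.7% of the values are whole. No source used here names the aligner, the counter or the strand setting, so overlapping genes may share reads. Per the submitters' processing notes GRCm38 and DESeq2 were used, and gene positions are those of the deposited gene table. The score was computed from the authors' log2-scale table of variance-stabilised values, as deposited. No value of another series was used.

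Counts were rounded, genes filtered with filterByExpr by group and letter, and groups tested with edgeR 4.0.16 (R 4.3.3; TMM, quasi-likelihood F test, title letter as covariate, Benjamini-Hochberg adjustment, threshold 0.05). Standard errors are the log2 difference over the root of F. CPM are scaled by TMM library sizes. Hormone ratios (pseudocount 0.5 CPM) were tested with 100000 permutations within title letter (two-sided; Python 3.11.15, NumPy 2.4.6, SciPy 1.17.1). Alternatives were DESeq2 1.42.0, limma-voom and limma (3.58.1) on the deposited values, other scalings, filters, score definitions and cut points, the band as covariate, single bands and letters, and bands left out. On simulated counts for these libraries the test recovered 92% of 50 genes changed 1.5-fold and 94% changed 2-fold, with 6 false calls among 17857 genes. The simulated counts held no band or letter effect and no rise of the acinar genes. The number of false calls in the real comparison is therefore not known from them.

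Members and gene lists were chosen with earlier results of these data known. Named genes were the 12 largest differences in each direction (mean CPM at least 2, same sign in each band, no placeholder symbol, no score gene), the same outside all lists, up to 4 members per list by adjusted p, preset genes and the interaction calls. Where other list members are named with values, they show the spread of their list. The labels say that each library is a different mouse number. Depth was 15120235 to 68757039 counts per library. Results of some genes are not reported here.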

Additional observations from a re-analysis of the deposited data

Results flagged for a closer look

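In 1 gene the relation to acinar content differed between title letters by the interaction test. Gm12504, a predicted gene, had a difference of 1.64 between the M and the F contrast (log2, edgeR adjusted p = 0.0128). Its median was 0.17 CPM in acinar-poor and 0.168 CPM in acinar-rich libraries, 93.7% of libraries had fractional counts for it, and with the band as covariate no gene passed (0).

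Ighm, the immunoglobulin heavy chain gene of B cells, had a group difference that depended on the number band (F = 10.8, adjusted p = 0.00328). From band 1 to band 4 the fitted log2 values were 1.73, 0.82, 3.56 and -1.89, called in none of them (adjusted p = 0.068, 0.526, 0.113 and 0.764). Its level ran from 0.0377 to 391.7 CPM in acinar-rich and from 0.0241 to 44.8 CPM in acinar-poor libraries. In all, 78 genes (0.437%) passed this interaction.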

How the results depend on the processing

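DESeq2, limma-voom, scaling by size factors, other filters and cut points and a score made from counts kept the higher, lower and all called genes within 1.5 times of 4.14, 1.64 and 5.78% of the genes tested. Total counts gave 8.62% lower and 11.4% called, the band as covariate 3.61 and 9.4%, limma on the deposited values 3.6% lower, and the score as a number over all libraries 3.09% lower. Over the 190 libraries of neither group the score gave 0.401% higher, 0.0295% lower and 0.43% called. Band 1 alone gave 3.7% lower, band 2 alone 0.789% higher, 0.0778% lower and 0.867% called, band 3 alone 0.914, 0.288 and 1.2%, and band 4 alone 0.448, 0.0118 and 0.46%. Title letter F alone gave 0.773, 0.0649 and 0.838%, and M alone 2.09, 0.788 and 2.88%. In alternatives chosen after seeing the data, leaving out band 1 gave 1.09, 0.101 and 1.19%, band 2 1.95, 0.479 and 2.43%, and band 4 6.36, 3.76 and 10.1%, and leaving out band 3 gave 2.51% lower. Single bands and letters hold fewer samples, the libraries of band 4 also hold fewer counts, and otherwise the cause was not tested. The letter interaction was passed by 0 genes with the band as covariate and by 0.0225% without a filter, and the interaction with band by 0.437%.

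For the named genes, 3529 comparisons with an alternative gave 3077 with the same call (including 4.0% of all comparisons that changed sign with neither value past the threshold), 10.7% weaker, 62 stronger and 13 in which a called value changed sign. The last were, in libraries of neither group, Ky (0.0223), Dock10 (0.0649), Tmed6 (-0.112), Lyz2 (-0.548), Ptprc (-0.155), S100b (-0.151) and Ifit3 (-0.141), in band 4 Nr5a2 (-0.021), Dcn (-0.0175) and Cdh19 (-0.0585), in band 2 Lyz2 (-0.0318), and in band 3 Cenpf (0.074) and Aurkb (0.054). No hormone ratio passed under another pseudocount, cut point or permutation within bands. No paired analysis was possible because no mouse number is shared by the groups.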

Other observations

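Single libraries differed in the make-up of their enzyme RNA. Amylases took a median of 41.8% of enzyme CPM and trypsinogens 12.7% over all libraries. M mouse DO-374 of band 4, an acinar-rich library with an acinar share of 0.952%, had 7.46% amylases and 34.3% trypsinogens. Against the 21 other acinar-rich libraries of its band it was the lowest in Cela1 (86.25 CPM, others 418.5 to 2003), Gp2 (10.7 CPM, others from 44.46) and Pnlip (275.6 CPM, others from 570.8), and it is the library through which Cela1 and Gp2 overlapped between groups. It was the highest in the trypsinogen genes Prss1 (441 CPM, others 0 to 41.2) and Prss3 (497 CPM, others to 35.1), in Spink1 (69.6 CPM, others to 36.9), and in the injury genes Clu (443.9 CPM, others to 361.1), Cd44 (409.4 CPM, others to 310.1) and Lcn2 (21.8 CPM, others to 7.52). Cpb1 (429 CPM) and Rbpjl (1.06 CPM) lay within the range of the others. The same library held 119.4 CPM of Aldh1a3, an aldehyde dehydrogenase gene known from failing beta cells (others to 62.8), and, among genes of gut peptides, 36.1 CPM of the gastrin gene Gast (others to 4.97) and 488 CPM of the cholecystokinin gene Cck (others to 1.24).

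Of the 8 libraries with the smallest amylase share 7 have title letter M, and they include 3 acinar-poor, 3 between and 2 acinar-rich libraries. Of these 8, 4 are of band 4, where the median amylase share was 34.2% (45.4, 44.25 and 43.9% in bands 1 to 3). M mouse DO-201 (13.4% amylases, 32.9% trypsinogens) had 69.6 CPM of Aldh1a3, 19.5 CPM of Gast and 21.1 CPM of Cck, and M mouse DO-088 (14.01 and 38.4%) had 89.8, 0.947 and 16.6 CPM. M mouse DO-380 (24.4 and 19.7%) had 1.84, 0.184 and 0.184 CPM, so low amylase did not always go with these genes. F mouse DO-070 (9.84 and 1.89%) had too few acinar counts for its shares to be read.

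After these values were seen, the amylase share was correlated with the log2 level of 11 genes (pseudocount 0.1 CPM) over the 94 acinar-rich libraries, DO-374 included. The permutations ran over all 94 without regard to band or title letter. Their p-values therefore do not separate a relation from differences between bands. For Cck Pearson's r was -0.647 and Spearman's rho -0.501 (permutation p = 1.0e-05 each, the smallest that 100000 permutations can give, adjusted p = 5.5e-05), with -0.507 and -0.498 without the 2 libraries farthest from its median. The rank correlation was -0.436 within F and -0.556 within M, but -0.244, -0.33, -0.286 and 0.129 within bands 1 to 4, so the relation was weaker within bands and had the other sign in band 4. Derl3 had r = -0.509 and rho = -0.468 (permutation p = 1.0e-05 each, adjusted p = 5.5e-05), and -0.145, -0.602, -0.285 and 0.000565 within bands. Ins2 had r = -0.395 and rho = -0.369 (permutation adjusted p = 4.0e-04 and 0.00125), and rho was -0.0639, -0.0436, -0.339 and -0.112 within bands. Spink1 ran the other way, unlike in DO-374, with r = 0.237 and rho = 0.322 (permutation adjusted p = 0.0352 and 0.00481), and rho was 0.128, 0.0677, 0.0401 and -0.0808 within bands. Ucn3 passed by rank (rho = -0.253, permutation adjusted p = 0.0311) and not by r (-0.172, adjusted p = 0.126), with -0.233, 0.123, -0.0999 and -0.0457 within bands. The other groups, without regard to band and without a test, gave the same signs for these genes. In acinar-poor and between libraries rho was -0.543 and -0.4815 for Cck and -0.252 and -0.489 for Derl3. It was -0.327 and -0.533 for Ins2, 0.314 and 0.172 for Spink1 and -0.203 and -0.2425 for Ucn3. Over the acinar-rich libraries Aldh1a3 (rho = -0.15, permutation p = 0.149, adjusted p = 0.234) and Gast (rho = -0.158, permutation p = 0.128, adjusted p = 0.234) did not hold by rank, and neither did Slc2a2, Clu, Cd44 or Lcn2 (adjusted p from 0.398 to 0.705). By Pearson's r Gast (-0.418, permutation adjusted p = 0.00245), Aldh1a3 (-0.253, 0.0274) and Slc2a2 (0.267, 0.0208) passed. Clu, Cd44 and Lcn2 did not (permutation adjusted p from 0.126 to 0.988). Without the 2 libraries farthest from each gene's median, r was -0.0547 for Gast, -0.109 for Aldh1a3 and 0.09 for Slc2a2. Cck was at 0 in 26 of the acinar-rich libraries, and its median of 0.0568 CPM there lay below the pseudocount. Amylase counts are split among gene copies, and the part of either in these values was not tested.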
